A study of Mus musculus with 3 samples.

Results

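The 163 members are the variable segments of the T cell receptor alpha and beta chains, taken as every gene row whose symbol starts with Trav (128 segments) or Trbv (35 segments) among 30905 gene rows. Their use was read in CD3-positive barcodes, meaning barcodes with at least 1 UMI (a count of 1 captured transcript molecule) of Cd3d, Cd3e or Cd3g and no UMI of the B cell genes Cd79a or Ms4a1. There were 1874 such barcodes of 7903 in C, 1829 of 8566 in T1 and 2175 of 5779 in T3. C is 1 library of CD45+ cells (leukocytes) sorted from the colon of healthy C57BL/6 mice. T1 and T3 are 1 library each from the colon of C57BL/6 mice given azoxymethane (AOM, a colon carcinogen, 12 mg/kg into the peritoneum) and then 3 cycles of dextran sodium sulfate (DSS, which injures the colon lining), with 7 days of 2.5% DSS and 14 days of water in each. T1 came from tissue with low-grade and T3 from tissue with high-grade intraepithelial neoplasia. Treatment was begun at 6-8 weeks of age, per the labels, which give neither the number of mice behind a library nor the age at collection.

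Each alpha-beta T cell assembles a receptor from 1 variable and 1 joining segment for the alpha chain, and from 1 variable, 1 diversity and 1 joining segment for the beta chain, each spliced to a constant gene (Trac for alpha, Trbc1 or Trbc2 for beta). The variable segment encodes the loops that lean on the MHC molecule, and its choice differs between cells, so a population of unrelated T cells spreads over many segments while an expanded clone repeats its own. Some Trav segments can also join the delta chain of gamma-delta T cells, and carry dv in their symbol. Cd4 and Cd8b1 encode the coreceptors of helper and cytotoxic T cells, Foxp3 encodes the transcription factor of regulatory T cells, and Il17a encodes the cytokine of type 17 cells.

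The CD3-positive barcodes held 10874037 UMIs in C, 11359251 in T1 and 8582991 in T3, with medians per barcode of 5734, 6172 and 3920. Trac was found in 78.1%, 85.3% and 67.1% of them and a Trbc gene in 94.1%, 94.4% and 87.0%. T3 stood apart, since 77.8% of its CD3-positive barcodes held a haemoglobin UMI, against 0.328% in T1 and 0.907% in C. The summed level of 5 myeloid genes was 759 CPM in T3 (UMIs of a gene scaled to a common total of UMIs per library), against 70.4 CPM in T1 and 11.5 CPM in C, with none of the 5 at 0 in a library. The part of haemoglobin and myeloid RNA in the results of T3 was not tested beyond the values without haemoglobin barcodes given below. Summed gamma-delta constant genes (Trdc, Tcrg-C1, Tcrg-C2 and Tcrg-C4) stood at 652 CPM in C, while T1 had 194 and T3 had 61.8 CPM. Pairs of libraries shared 35 to 39 barcodes in all and 0 to 5 among the CD3-positive ones. The labels call the mice male, whereas Xist was found in 76.6% to 90.2% of CD3-positive barcodes and 4 Y-linked genes together in 0, 0 and 1 barcodes. With 1 library per condition there was no replicate, so differences between libraries carry no p-value, and intervals cover counting error only.

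A variable segment was recorded in a minority of T cells. A Trav UMI was found in 17.8% of CD3-positive barcodes in C (95% exact Clopper-Pearson interval 16.1% to 19.6%), in 19.1% in T1 (17.4% to 21%) and in 15.1% in T3 (13.6% to 16.7%). A Trbv UMI was found in 12.8% in C (11.3% to 14.4%), 14.9% in T1 (13.3% to 16.6%) and 9.93% in T3 (8.71% to 11.3%). Barcodes with a Cd79a or Ms4a1 UMI and no CD3 UMI, which should lack these transcripts, held a Trav UMI in 0.148%, 0.0661% and 0.589% of cases and a Trbv UMI in 0.186%, 0.165% and 0.393%, at median depths of 4649, 4982 and 2682 UMIs. Segment counts in CD3-positive barcodes were therefore well above the level in B cells of the same library.

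The order of the libraries changed at equal depth. After each barcode was thinned to 1000 UMIs, which left out 70, 51 and 354 shallower barcodes, the Trav share was 4.88% in C, 5.91% in T1 and 5.38% in T3, and the Trbv share was 2.38%, 2.81% and 3.24%. The lower share of T3 was no longer seen, and the intervals of the 3 libraries overlapped for both chains. Against the constant genes, there were 8.19, 6.39 and 9.93 Trav UMIs per 100 Trac UMIs in C, T1 and T3, and 1.15, 1.28 and 1.69 Trbv UMIs per 100 Trbc UMIs. The 76 joining and diversity segments (Traj, Trbj and Trbd) had no UMI in CD3-positive barcodes of any library.

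**Figure D1:**
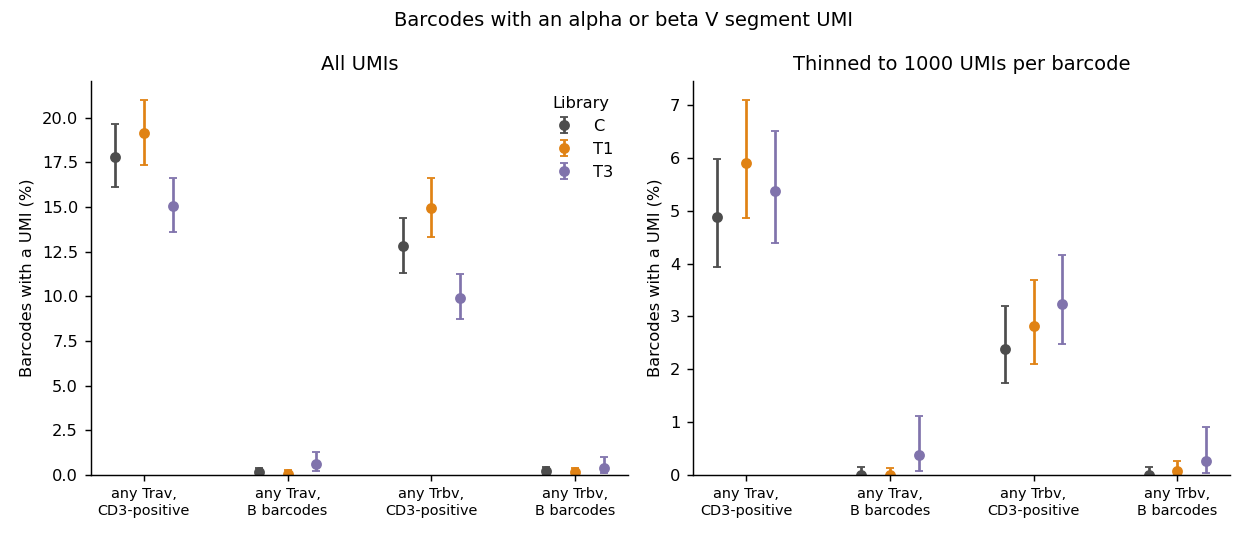
Share of barcodes with a Trav or a Trbv UMI (vertical axis, percent) in CD3-positive and B cell barcodes of C, T1 and T3, from all UMIs on the left and after thinning on the right. Points are shares and bars are 95% exact intervals. CD3-positive shares lie between 9.93% and 19.1% before thinning and between 2.38% and 5.91% after it, and the B cell shares reach at most 0.589%.

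Of the 163 segments, 97 had a UMI in CD3-positive barcodes (74 Trav and 23 Trbv), 74 had one in each library and 66 had none. They held 1517 Trav and 875 Trbv UMIs in all, and 41 segments (28 Trav and 13 Trbv) held at least 20. Most records were thin: 77.3% to 81.4% of the Trav and 84.1% to 92.5% of the Trbv records in a barcode rested on 1 UMI.

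Whether a segment was recorded at all went with how far its sequence is its own. The Trav locus on mouse chromosome 14 holds repeated copies of the same segments, marked d and n in their symbols, whereas the Trbv segments on chromosome 6 differ from each other. Of 108 Trav segments annotated as genes in GENCODE release 21 for mouse (build GRCm38, the build of the files), 35 had no 60-base window found in that segment alone among all Trav and Trbv transcripts, and none of the 35 had a UMI. Among 27 with under 50% of their windows unique, 24 had a UMI. Among 38 with 50% or more, 37 had one, and among 8 with every window unique, 7 had one. All 22 Trbv genes were unique in every window and all had a UMI. How the authors treated reads that match several copies is not given in the sources used here, and whether reads of the segments at 0 were discarded was not tested.

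**Figure D2:**
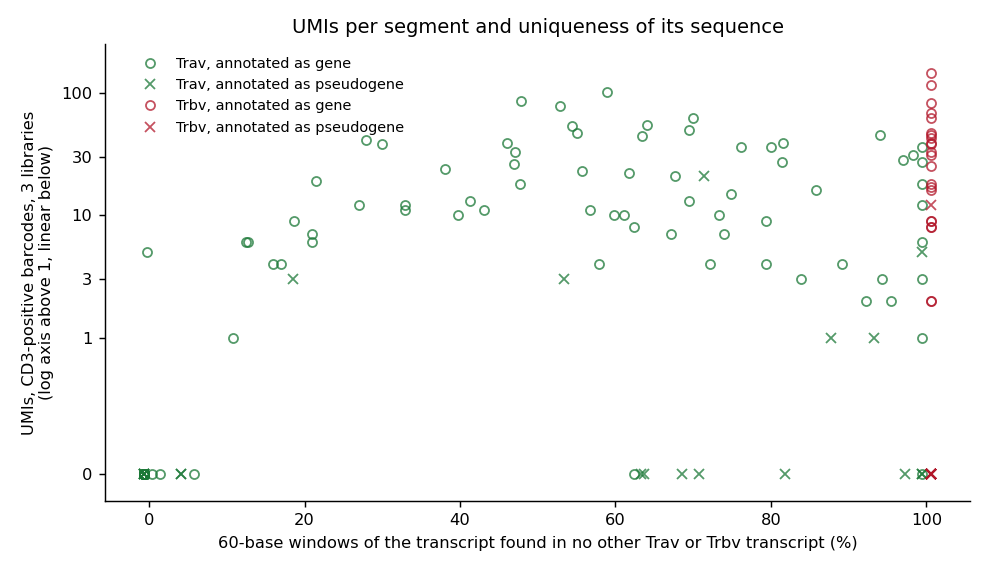
UMIs per segment summed over the CD3-positive barcodes of the 3 libraries (vertical axis, logarithmic above 1) against the share of its 60-base windows found in no other Trav or Trbv transcript (horizontal axis, percent). Circles are annotated genes and crosses pseudogenes, green for Trav and red for Trbv, moved slightly left and right to part the chains. Segments with no unique window lie at 0 UMIs on the left, and Trav7d-2, with 0.36% of its windows unique, has 5 UMIs.

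The segments that mark invariant T cells show the limit this sets. Trav11, with its copy Trav11d, encodes the variable part of the alpha chain of invariant natural killer T cells, which see lipids on CD1d. Neither had a UMI in any library, where a count of 0 allows up to 0.16% of barcodes with a UMI in C, 0.164% in T1 and 0.138% in T3. Their variable exons are identical over the 290 bases compared, and the pseudogene Trav11n, with 1 UMI in T1, differs from them at 6 of 290. The last 90 aligned bases of the exon are shown to make this likeness visible, from GENCODE transcripts of build GRCm38, plus strand, at chr14:53519769-53519858 for Trav11, chr14:52824823-52824912 for Trav11d and chr14:53135588-53135677 for Trav11n, with capitals where the 3 copies are not all alike.
Trav11: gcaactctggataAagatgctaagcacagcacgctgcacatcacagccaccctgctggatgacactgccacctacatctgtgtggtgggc
Trav11d: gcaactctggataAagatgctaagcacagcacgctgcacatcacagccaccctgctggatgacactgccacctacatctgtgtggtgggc
Trav11n: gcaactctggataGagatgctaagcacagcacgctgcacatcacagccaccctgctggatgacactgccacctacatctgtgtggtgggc
Trav1, the alpha segment of mucosal-associated invariant T cells, has no near copy and had 2, 0 and 4 UMIs in C, T1 and T3. The joining segments of both invariant chains, Traj18 and Traj33, were at 0 in every library.

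Trav16, Trav16n and Trav16d-dv11 are near copies that could still be told apart. They were recorded with 101, 86 and 13 UMIs, and Trav16 and Trav16n were the most recorded alpha segments. Over 301 bases Trav16n differs from Trav16 at 4 and from Trav16d-dv11 at 3. The last 150 bases of the exon, where 3 of the 4 and 1 of the 3 differences lie, are shown (GRCm38, plus strand) at chr14:53351472-53351621 for Trav16n, chr14:53743556-53743705 for Trav16 and chr14:53047672-53047821 for Trav16d-dv11, with capitals where the 3 are not alike, since the contrast of cytotoxic and helper T cells below turns on Trav16n.
Trav16n: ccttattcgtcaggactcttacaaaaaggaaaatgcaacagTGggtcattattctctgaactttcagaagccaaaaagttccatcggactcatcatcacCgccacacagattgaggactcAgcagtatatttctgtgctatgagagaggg
Trav16: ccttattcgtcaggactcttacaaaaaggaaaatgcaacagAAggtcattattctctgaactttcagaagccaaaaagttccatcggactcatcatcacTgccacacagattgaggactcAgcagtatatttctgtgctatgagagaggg
Trav16d-dv11: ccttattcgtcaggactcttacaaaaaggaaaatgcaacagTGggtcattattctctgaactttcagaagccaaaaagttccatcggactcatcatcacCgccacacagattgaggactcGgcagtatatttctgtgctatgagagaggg
A read that lies within this stretch and covers none of the capitals matches all 3, so counts of the single copies are uncertain and their sum is given beside them.

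Pseudogenes were seldom recorded. Of 20 Trav pseudogenes 6 had a UMI, led by Trav8-2 with 21, and of 13 Trbv pseudogenes 1 had one, Trbv24 with 12. Trav8-2 lies next to Trav16, with 4266 bases between them, and both were recorded in the same barcode in 2 barcodes of C, 2 of T1 and 1 of T3, the most of any alpha pair.

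Among beta segments, Trbv12-2 (Tcrb-V5.1 among the RefSeq synonyms) and Trbv2 (Tcrb-V4) were recorded most often. These ranks are of recorded UMIs and barcodes, not of transcript levels per length. Trbv12-2 had 57 UMIs in 49 barcodes of C, 55 in 48 of T1 and 32 in 30 of T3, or 20.4%, 17.6% and 13.9% of the barcodes with any Trbv UMI. Trbv2 had 28 UMIs in 22 barcodes of C, 46 in 35 of T1 and 42 in 38 of T3, or 9.17%, 12.8% and 17.6%. Trbv12-2 led in C and T1, and Trbv2 in T3.

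Trbv12-2 and its neighbour Trbv12-1 illustrate how well beta segments separate: they differ at 32 of 293 bases and were recorded with 144 and 33 UMIs. Their last 90 exon bases are shown (GRCm38, plus strand) at chr6:41119275-41119364 and chr6:41113978-41114067, with capitals at the 5 positions that differ.
Trbv12-2: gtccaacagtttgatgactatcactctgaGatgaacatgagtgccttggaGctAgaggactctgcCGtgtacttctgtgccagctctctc
Trbv12-1: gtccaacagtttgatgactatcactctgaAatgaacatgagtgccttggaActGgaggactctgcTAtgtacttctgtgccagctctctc

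Trbv3 (Tcrb-V16) came next, with 42 UMIs in C, 29 in T1 and 12 in T3, followed by Trbv19 (Tcrb-V6), with 22, 26 and 20. Of the Trbv13 segments (the Tcrb-V8 family), Trbv13-2 is the one paired most often with the invariant natural killer T alpha chain in mice. Trbv13-2 had 16, 24 and 22 UMIs in C, T1 and T3, Trbv13-1 had 19, 7 and 5, and Trbv13-3 had 6, 13 and 6. Trbv16 had 13, 27 and 7, Trbv20 had 12, 14 and 19, Trbv15 had 14, 10 and 15, and Trbv1 had 13, 18 and 7. Trbv12-1 had 8, 19 and 6, and Trbv17 had 7, 6 and 3. Trbv29 (Tcrb-V7), another partner of the invariant chain, had 7, 7 and 3, and Trbv31, the only member on the minus strand, which joins by inversion, had 5, 7 and 6. Trbv5, Trbv21, Trbv30, Trbv4, Trbv14 and Trbv23 had at most 9 UMIs each over the 3 libraries.

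The beta segments were spread to a like degree in the 3 libraries. The effective number of Trbv segments, which is the number of equally used segments that would give the same evenness (the inverse Simpson index over barcodes), was 11.1 in C, 12.4 in T1 and 11.7 in T3, from 240, 273 and 216 barcodes. For Trav it was 35.6, 37.3 and 35.0, from 334, 350 and 328 barcodes. No single alpha symbol took more than 7.78% of Trav-holding barcodes: Trav16n led in C with 26 barcodes (7.78%), Trav16 in T1 with 23 (6.57%) and Trav14d-3-dv8 in T3 with 22 (6.71%). The 3 Trav16 copies together were found in 15.9%, 12.3% and 12.5% of these barcodes in C, T1 and T3. All Trav14 symbols together were found in 13.8%, 14.6% and 18.9%. Trav3-3 had 25, 14 and 11 UMIs in C, T1 and T3, and Trav14n-3 had 15, 15 and 17. Trav7-5 had 20, 10 and 15 UMIs, and Trav14-2 had 15, 19 and 10.

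**Figure D3:**
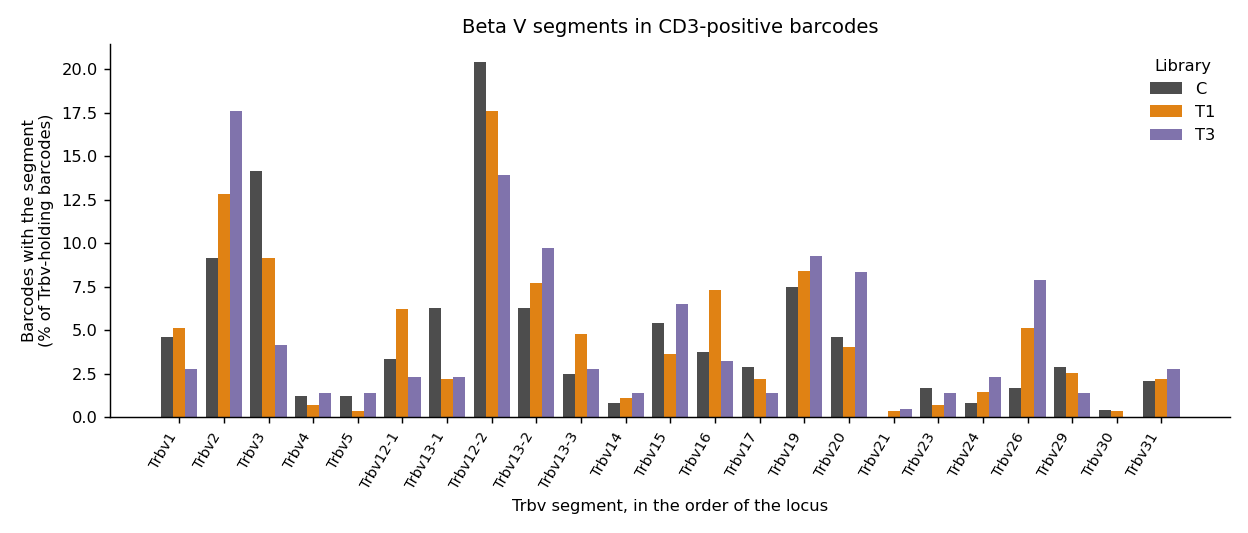
Share of Trbv-holding barcodes (vertical axis, percent) with each of the 23 Trbv segments that had a UMI, in the order of the locus, in C, T1 and T3. Trbv12-2 is the highest bar of C (20.4%) and T1 (17.6%) and Trbv2 that of T3 (17.6%), and Trbv3 is lower in T3 (4.17%) than in C (14.2%).

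The comparison of libraries asks whether segment use differs between tissue with neoplasia and healthy colon. A segment was counted as different when its CPM differed at least 2-fold, the libraries together held at least 20 UMIs, and the exact 95% interval of the ratio left out equality. Between T1 and C, 3 of 32 segments with enough UMIs were higher and 2 lower, where over all 11368 genes with enough UMIs 2.76% were higher and 3.83% lower. Between T3 and C, 4 of 30 segments were higher and 2 lower, against 4.51% and 10.1% of 11174 genes. Between T3 and T1, 2 of 32 were higher and 1 lower, against 3.63% and 6.87% of 11117 genes. Median log2 ratios of the segments with enough UMIs were -0.02, 0.27 and 0.21 in the 3 comparisons, and -0.09, -0.14 and -0.05 over all such genes. The comparisons share libraries and are not independent of each other.

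Trbv26 (Tcrb-V3.1) had the largest ratio among the higher segments. It had 18 UMIs in 14 barcodes of T1 and 4 UMIs in 4 barcodes of C, a log2 ratio of 2.11 (0.50 to 4.13). In T3 it had 21 UMIs in 17 barcodes, a log2 ratio to C of 2.73 (1.17 to 4.74). Per CD3-positive barcode it was found in 0.765% in T1 and 0.782% in T3, against 0.213% in C, and the interval of C (0.0582% to 0.546%) overlapped those of T1 (0.419% to 1.28%) and T3 (0.456% to 1.25%).

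Trbv3 and Trbv13-1 were lower. Trbv3 had 12 UMIs in 9 barcodes of T3 and 42 UMIs in 34 barcodes of C, a log2 ratio of -1.47 (-2.53 to -0.51), and its barcode share was 0.414% (0.189% to 0.784%) in T3 and 1.81% (1.26% to 2.53%) in C. T1 lay between them with 29 UMIs in 25 barcodes. Trbv13-1 had a log2 ratio of -1.50 (-3.0 to -0.19) in T1 against C and of -1.58 (-3.36 to -0.12) in T3 against C. Trbv16 had a log2 ratio of -1.54 (-2.99 to -0.31) in T3 against T1.

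Among alpha segments, Trav13-1 had 28 UMIs in 22 barcodes of T1 and 8 UMIs in 7 barcodes of C, a log2 ratio of 1.74 (0.57 to 3.09), and 18 UMIs in 15 barcodes of T3, a log2 ratio to C of 1.51 (0.24 to 2.92). Trav14-3 had 16 UMIs in T1 and 4 in C, a log2 ratio of 1.94 (0.30 to 3.98). Trav5-4 had 2 UMIs in T1 and 18 in 10 barcodes of C, a log2 ratio of -3.23 (-6.38 to -1.17). Its counts of 1 UMI in T3 and 18 in C fell just short of the 20 required. Against C, T3 was higher for Trav14d-3-dv8 (25 against 14 UMIs) and Trav7-4 (16 against 8 UMIs), by 1.18 and 1.34 on the log2 scale, and against T1 for Trav6-5 (18 against 9 UMIs) and Trav8d-2 (18 against 7 UMIs), by 1.40 and 1.77.

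Most of these ratios rested on few barcodes, and a summed CPM cannot tell fewer cells with a segment from fewer transcripts per cell. UMIs of 1 barcode come from 1 cell, so the intervals are too narrow: the 18 UMIs of Trav8d-2 in T3 lay in 4 barcodes, with 10 of them in 1. Counting barcodes in place of UMIs, over the number of CD3-positive barcodes in place of their UMI total, lost 9 of the 14 differences. It kept those of Trav13-1 in T1 against C, Trbv3, Trbv13-1 and Trbv26 in T3 against C, and Trbv16 in T3 against T1. It turned the ratio of Trav8d-2 to -0.83. The minimum of 20 then applied to barcodes, which Trbv26 in T1 against C missed with 14 and 4. CD3-positive barcodes of T3 were shallower, at a median of 3920 UMIs against 5734 in C and 6172 in T1. At the same counts, ratios of T3 are therefore lower on this scale. The part of this in the changes was not tested. Leaving out barcodes with a haemoglobin UMI, which keeps 482 of 2175 in T3, left Trbv3 with 4 UMIs in T3 at a log2 ratio to C of -1.04 (-2.99 to 0.42) and Trbv26 with 2 UMIs at 1.35 (-2.12 to 4.15). In all, 7 of the 9 differences of T3 were lost in that way, namely Trav13-1, Trbv3, Trbv13-1 and Trbv26 against C and Trav8d-2, Trav6-5 and Trbv16 against T1, and those of Trav14d-3-dv8 and Trav7-4 against C remained. Trav13-1 was lost through the minimum of 20 UMIs, with 7 UMIs in T3 and 8 in C at a log2 ratio of 2.15 (0.46 to 3.81).

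**Figure D4:**
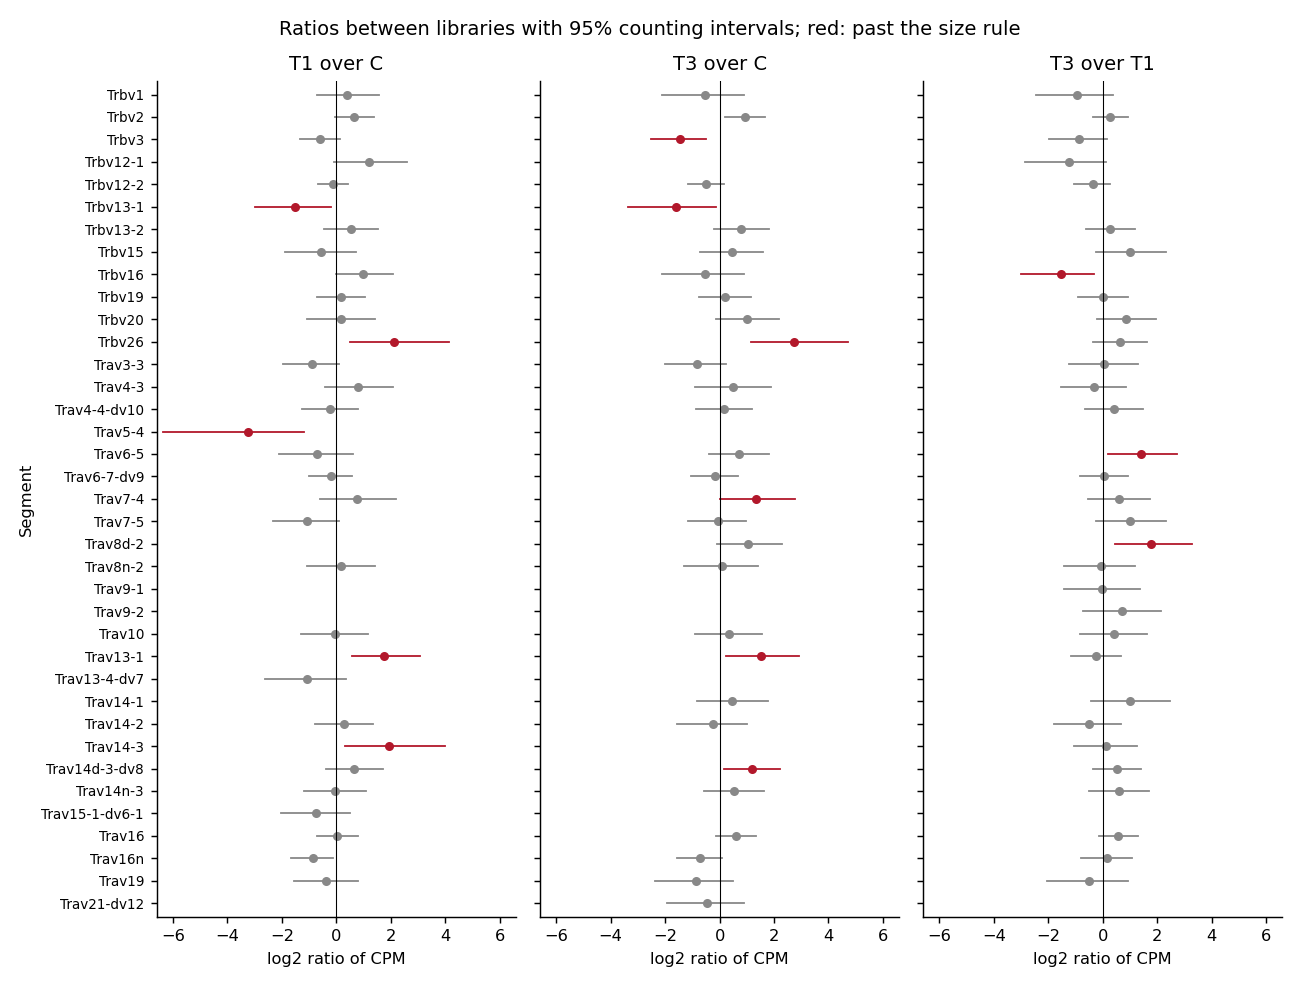
Log2 ratio of CPM (horizontal axis) of the segments with at least 20 UMIs over the 2 libraries compared, for T1 over C, T3 over C and T3 over T1, with lines for exact 95% counting intervals. Red marks the 5, 6 and 3 segments past the size rule. Trbv26 lies to the right and Trbv13-1 to the left of 0 in both comparisons with C.

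The CD3-positive barcodes were then split into subsets that do not overlap. Barcodes with a Cd8b1 UMI and none of Cd4, Foxp3 or Il17a numbered 310 in C, 284 in T1 and 425 in T3. Barcodes with a Cd4 UMI and none of Cd8b1, Foxp3 or Il17a numbered 331, 543 and 512. Foxp3 barcodes without Il17a or Cd8b1 numbered 52, 204 and 69, Il17a barcodes without Foxp3 or Cd8b1 numbered 15, 54 and 42, and 1132, 690 and 1077 barcodes held none of the 4 genes. A barcode without a UMI of a gene may still express it, so these subsets part recorded transcripts, not all cells.

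Trav16n was higher in Cd8b1 barcodes than in Cd4 barcodes in each library. In C, T1 and T3, Cd8b1 barcodes had 11.3, 6.15 and 4.46 CPM and Cd4 barcodes had 2.88, 0.845 and 2.05 CPM. The 2 groups of libraries did not overlap. UMIs summed per library and subset and tested with edgeR's quasi-likelihood test, with the library as a block, gave a log2 fold change of 2.07 (standard error 0.43, 3 libraries, adjusted p = 0.00349 by Benjamini-Hochberg over 8655 genes). Trav16n entered this test by passing a filter on low counts through its Cd8b1 sums, where it is high. Most segments did not pass that filter, so the p-value is to be read with this limit. In barcodes, Trav16n was found in 15 of 310, 9 of 284 and 9 of 425 Cd8b1 barcodes, together 33 of 1019, and in 2 of 331, 2 of 543 and 4 of 512 Cd4 barcodes, together 8 of 1386. In the same fit 9.81% of the 8655 genes were called, 3.87% higher and 5.94% lower. The call was lost with DESeq2 (adjusted p = 0.142) and in edgeR without the library block (adjusted p = 0.0997), at log2 fold changes of 2.10 and 2.11. Over all genes, DESeq2 called 110 higher and 161 lower, and edgeR without the block called 50 higher and 72 lower.

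The near copy Trav16 had 5.90, 3.79 and 2.84 CPM in Cd8b1 barcodes and 2.88, 1.13 and 2.46 CPM in Cd4 barcodes of C, T1 and T3, higher in Cd8b1 barcodes in each library though the groups overlapped. With the 3 Trav16 copies summed into 1 row, a choice made after seeing the data, the edgeR log2 fold change was 1.59 (standard error 0.35, adjusted p = 0.0054). Of the 33 Cd8b1 barcodes with Trav16n, 27 held a Cd8a UMI, none held a Trdc UMI, and 6 held a Trbv UMI, which was Trbv12-2 in 4. The 8 Cd4 barcodes with Trav16n held no Cd8a, Trdc or Trbv UMI.

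Only 2 of the 163 segments, Trav16n and Trbv12-2, passed edgeR's filter on low counts in this contrast. Trav16n had 23, 13 and 11 UMIs in the Cd8b1 sums and 6, 3 and 5 in the Cd4 sums of C, T1 and T3, so it passed through the subset in which it is high, and its call is to be read with that. Trbv12-2 had 7.87, 4.73 and 2.84 CPM in Cd8b1 barcodes and 2.40, 6.76 and 3.7 CPM in Cd4 barcodes of C, T1 and T3, so its direction differed between libraries (log2 fold change 0.34, standard error 0.41, edgeR adjusted p = 0.716). Without the filter, 92 segments were tested and 2 called, Trav16n (edgeR adjusted p = 0.000323) and Trbv26 (log2 fold change -2.97, standard error 1.03, edgeR adjusted p = 0.0481). Over all 15446 genes in that fit, 503 were called higher and 719 lower.

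Trbv26 leaned to Cd4 barcodes. It was found in 0 of 310, 1 of 284 and 1 of 425 Cd8b1 barcodes and in 3 of 331, 7 of 543 and 10 of 512 Cd4 barcodes of C, T1 and T3. Trbv2 was found in 3, 1 and 6 Cd8b1 barcodes and in 4, 17 and 14 Cd4 barcodes, with a log2 fold change of -1.31 that missed the threshold in the fit without the filter (standard error 0.51, edgeR adjusted p = 0.0992). Over the 41 segments with at least 20 UMIs, 4 were higher and 12 lower in Cd8b1 than in Cd4 barcodes in every library, beside 10.7% higher and 30.2% lower over all 11820 genes with as many UMIs. These shares of segments lie near those of all genes and are no result about segments.

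**Figure D5:**
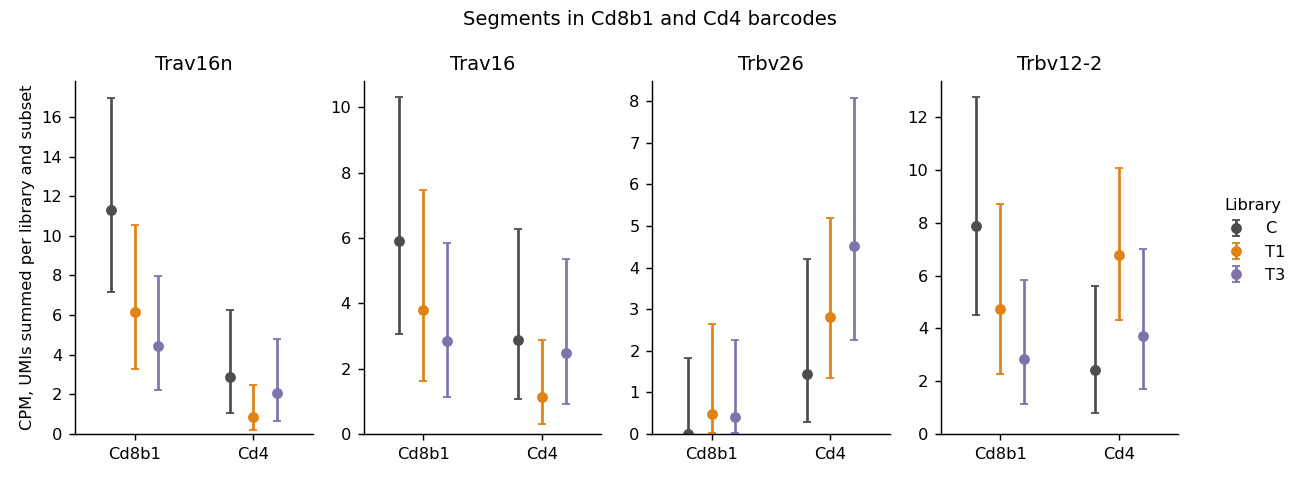
CPM of Trav16n, Trav16, Trbv26 and Trbv12-2 (vertical axes, from UMIs summed per library and subset) in Cd8b1 and Cd4 barcodes of C, T1 and T3, with bars for exact 95% Poisson intervals. The Trav16n points of Cd8b1 barcodes (4.46 to 11.3 CPM) lie above those of Cd4 barcodes (0.845 to 2.88 CPM), and the Trbv26 points lie the other way.

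Alpha use was more concentrated in Cd8b1 barcodes than in Cd4 barcodes in each library. The effective number of Trav segments was 14.1, 19.4 and 23.8 in Cd8b1 barcodes of C, T1 and T3 (67, 59 and 79 barcodes with a Trav UMI) and 32.6, 30.8 and 32.5 in Cd4 barcodes (79, 118 and 101 barcodes). Trav16n led in Cd8b1 barcodes of each library, with 22.4%, 15.3% and 11.4% of those with a Trav UMI. No such order was seen for Trbv, at 7.76, 9.39 and 11.2 in Cd8b1 barcodes and 11.7, 11.6 and 9.82 in Cd4 barcodes. The number rises with the barcodes sampled, which were fewer for Cd8b1 than for Cd4 in each library, and it carries no test. For Trav it is drawn from the same barcodes as the Trav16n contrast above, so it is not a separate result. A value without Trav16n was not computed.

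A Trbv UMI was less frequent in Cd8b1 than in Cd4 barcodes, at 14.2%, 13.4% and 11.1% against 15.7%, 21.2% and 13.5% in C, T1 and T3, although median depth was higher in Cd8b1 barcodes of each library (6314, 7342 and 6077 UMIs against 6125, 6326 and 4805). After thinning to 1000 UMIs the shares were 1.62%, 1.77% and 1.77% in Cd8b1 barcodes and 3.35%, 4.1% and 3.72% in Cd4 barcodes. The direction was the same in each of the 3 libraries, and within each library the thinned intervals overlapped.

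No segment passed the filter between Foxp3 and Cd4 barcodes or between Il17a and Cd4 barcodes, where edgeR called 12.1% of 8301 genes (7.06% higher and 5.02% lower) and 6.68% of 7533 genes (3.44% higher and 3.24% lower). Without the filter, edgeR called 632 genes higher and 542 lower of 15067 for Foxp3, and 303 higher and 317 lower of 14802 for Il17a. Among these genes it tested 89 and 87 segments and called none, with 1 and 0 at an unadjusted p under 0.05. Over all genes of these fits, 2337 of 15067 and 1598 of 14802 had an unadjusted edgeR p under 0.05. DESeq2, run on the filtered genes, had no segment to test. The single segment with an unadjusted p under 0.05 was Trav6-7-dv9 in Foxp3 barcodes. It was found in 2 of 52, 2 of 204 and 2 of 69 Foxp3 barcodes and in 3, 4 and 5 Cd4 barcodes (log2 fold change 1.94, standard error 0.85, edgeR adjusted p = 0.19). Foxp3 barcodes of C, T1 and T3 held a Trbv UMI in 7, 27 and 2 cases, and Il17a barcodes in 0, 8 and 3, and no difference of segment use between these subsets and Cd4 barcodes was called at these counts. Trbv2 was the most recorded beta segment of Foxp3 barcodes in T1, in 6 of 27. The 3 Trav16 copies together were found in 1 of 52, 0 of 204 and 5 of 69 Foxp3 barcodes.

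The segments shared with the delta chain made up a larger share of the Trav records in barcodes with a UMI of Trdc, the delta constant gene, than in barcodes without one, although most barcodes that held them had no Trdc UMI (26 with and 54 without in C, 9 and 56 in T1, 6 and 58 in T3). Of the barcodes with any Trav UMI, at least 1 of the 10 dv segments was found in 66.7% of those with a Trdc UMI in C (26 of 39, exact interval 49.8% to 80.9%), in 42.9% in T1 (9 of 21, 21.8% to 66%) and in 54.5% in T3 (6 of 11, 23.4% to 83.3%). Without a Trdc UMI it was 18.3% in C (14.1% to 23.2%), 17% in T1 (13.1% to 21.5%) and 18.3% in T3 (14.2% to 23.0%). For this share, intervals with and without Trdc did not overlap in any of the 3 libraries, with a gap of under 1 percentage point in T1 and T3. The share also depends on the other Trav segments, which were found in 4.76%, 12.1% and 5.75% of Trdc barcodes and in 15.9%, 16.5% and 12.7% of the others in C, T1 and T3. Over all CD3-positive barcodes, a dv segment was found with Trdc in 8.84% in C (5.86% to 12.7%), 7.76% in T1 (3.61% to 14.2%) and 6.90% in T3 (2.57% to 14.4%). Without Trdc it was found in 3.42% in C (2.58% to 4.44%), 3.27% in T1 (2.48% to 4.22%) and 2.78% in T3 (2.12% to 3.58%). By this measure the intervals did not overlap in C and overlapped in T1 and T3. The segments were taken as dv by symbol, not by these values.

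The dv segments differed among themselves. Trav13-4-dv7 was found in 9 barcodes of C, 8 of them with Trdc, in 6 of T1, 2 with Trdc, and in 2 of T3, none with Trdc. Trav15-2-dv6-2 had Trdc in 5 of 6, 4 of 4 and 0 of 2 barcodes, and Trav15-1-dv6-1 in 5 of 9, 3 of 8 and 0 of 2. Trav6-7-dv9, the third most recorded alpha segment with 30, 27 and 21 UMIs, had Trdc in 2 of 16, 1 of 17 and 1 of 17 barcodes. Trav14d-3-dv8 (in 1 of 14, 0 of 14 and 2 of 22) and Trav4-4-dv10 (in 1 of 7, 0 of 12 and 0 of 8) were likewise recorded mostly without Trdc. Trav21-dv12 stood between them, with 4 of 11, 0 of 4 and 1 of 8. Trav16d-dv11 had Trdc in 0 of 6, 0 of 2 and 1 of 4 barcodes, Trav15d-1-dv6d-1 had 4 UMIs in all, and Trav15d-2-dv6d-2 had none.

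A Trdc UMI was found in 15.7%, 6.34% and 4% of CD3-positive barcodes of C, T1 and T3. Trbv UMIs were found in 7.48% of Trdc barcodes in C, 8.62% in T1 and 13.8% in T3, and in 13.8%, 15.4% and 9.77% of the other CD3-positive barcodes. The intervals did not overlap in C (4.75% to 11.1% with Trdc and 12.1% to 15.6% without) and overlapped in T1 and T3.

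Few barcodes held more than 1 segment of a chain. Of those with any Trbv UMI, 9 of 240 in C (3.75%), 17 of 273 in T1 (6.23%) and 9 of 216 in T3 (4.17%) held 2 or more Trbv symbols. For Trav it was 33 of 334 (9.88%), 37 of 350 (10.6%) and 25 of 328 (7.62%). A T cell can carry rearranged alpha segments on both chromosomes, whereas beta rearrangement mostly stops after the first success. The most repeated beta pair was Trbv12-2 with Trbv13-2, in 0, 3 and 4 barcodes of C, T1 and T3. These are neighbours in the locus, with 2032 bases between them, and the next pair, Trbv12-2 with Trbv19, was found in 3 barcodes. Doublets were not removed, and their part in these barcodes was not tested.

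Alpha and beta segments were seldom read together. A barcode held both in 52 cases in C, 62 in T1 and 48 in T3, or 2.77%, 3.39% and 2.21%. They formed 173 distinct pairs of symbols, of which 159 were found in 1 barcode. The most repeated was Trav16n with Trbv12-2, in 3 barcodes of C and 1 of T3, all 4 of them Cd8b1 barcodes.

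Among 20 listed genes of receptor chains and proximal signalling, 17 had enough UMIs, and the size rule put 0 higher and 4 lower in T1 against C, 1 higher and 4 lower in T3 against C, and 1 higher and 3 lower in T3 against T1. The 4 lower ones in T1 and in T3 against C were Trdc, Tcrg-C1, Tcrg-C2 and Tcrg-C4, the constant genes of the delta and gamma chains, and the higher one was Dntt, which adds bases at the joints of rearranging receptors, with 46 UMIs in T3 against 22 in T1 and 13 in C. In C, T1 and T3 the level of Trac was 592, 711 and 556 CPM, and the Trav sum was 48.5, 45.4 and 55.2 CPM. The Trbv sum was 26.7, 30.02 and 28.4 CPM, and Trbc2 took 63.6%, 62.9% and 62.2% of Trbc UMIs.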

How the data were processed

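CD45+ cells of mouse colon were made into 10x Genomics 3′ libraries, per the labels' protocols. The files hold raw UMI counts for every gene in every barcode, which the authors deposited with no scaling. Software named in the submitters' processing notes is CASAVA 1.8, Cell Ranger 3.1.0 and Seurat 3.1.4, with the mouse build GRCm38 and with no roles stated. The gene annotation, and how reads matching several copies were counted, are not known from the labels or file headers. Reads of a 3′ library start at the constant end of a receptor transcript, far from the variable segment.

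Barcodes with under 200 genes or over 20% mitochondrial UMIs were left out. Doublets were not called, and shares without the barcodes above the 99th percentile of UMIs were an alternative. Shares have exact Clopper-Pearson intervals, sums exact Poisson intervals and ratios of 2 sums exact conditional intervals, all at the 95% level. UMIs of 1 barcode are not independent. A count of 0 was taken to allow 3 counts. Thinning drew 1000 UMIs per barcode without replacement. Subsets were compared with edgeR 4.0.16 in R 4.3.3 (quasi-likelihood test, TMM scaling, filterByExpr, Benjamini-Hochberg adjustment over all genes tested, threshold 0.05) on UMIs summed per library and subset. Each contrast was fitted on its 2 subsets with the library as a block, since both subsets of a library come from the same cells prepared together. The standard error is the absolute log2 fold change divided by the square root of the F statistic. The test was first tried on simulated counts, and DESeq2 1.42.0 was an alternative. The 3 libraries stand in for replicates there although they differ in condition. All 163 segments matched GENCODE release 21 by gene ID, and 26 had a RefSeq synonym. Python 3.11.15, numpy 2.4.6 and scipy 1.17.1 were used.

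Segments named with values are the 10 Trav and the 10 Trbv with most UMIs, those past the size rule or called between subsets, the dv segments, and Trav1, Trav11, Trav11d, Trbv1, Trbv13-1, Trbv13-2, Trbv13-3, Trbv19, Trbv29 and Trbv31. Any other was named after its values were seen. The members and lists were chosen with earlier results of these data known.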

Additional observations from a re-analysis of the deposited data

Results flagged for a closer look

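Variable segment UMIs were also found in barcodes that the comparisons above do not use, and T3 was higher than C in some sets of them and lower in another. Among barcodes left out by the filters on genes and mitochondrial UMIs, a Trav UMI was found in 4.94% in T3 (exact 95% interval 3.80% to 6.29%), against 2.84% in C (2.14% to 3.69%). A Trbv UMI was found in 2.91% of them in T3 (2.05% to 4.01%), against 1.05% in C (0.644% to 1.62%). Among barcodes with neither CD3 nor Cd79a or Ms4a1 UMIs, a Trav UMI was found in 4.98% in T3 (3.57% to 6.75%), against 1.75% in C (0.760% to 3.43%). Median depth of the last set was 836 UMIs in T3 and 1240.5 in C.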

How the results depend on the processing

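The shares of barcodes with a segment moved most with depth: thinning gave 4.88%, 5.91% and 5.38% for Trav and 2.38%, 2.81% and 3.24% for Trbv in C, T1 and T3. With no filter on genes or mitochondrial UMIs, Trav was 16.8% in T1 and 13.5% in T3, and Trbv 11.1% in C and 12.9% in T1. With 2 or more CD3 UMIs, T3 had 17.4% for Trav and 11.8% for Trbv, and without haemoglobin barcodes 17.8% and 11.8%. Of the 14 size-rule differences, 1 held under all 7 alternatives (Trav13-1, T1 against C). Of the 7, the rule with no minimum keeps every difference by construction, so it is no check of them. The number of segments past the rule was 1 in T1 against C when barcodes replaced UMIs (5 by UMIs), and in T3 against C it was 12 with no minimum and 3 by barcodes (6 by UMIs with the minimum). The share of all genes past the rule was not computed under the alternatives, so these counts are no result about segments. Trav8d-2 in T3 against T1 turned to -0.83 when its barcodes were divided by all CD3-positive barcodes, a scale on which the shallower T3 is lower. Between Cd8b1 and Cd4 barcodes, the library paired the subsets. As reported, 1 of 2 segments was called, beside 335 genes higher and 514 lower of 8655. Without this replicate block 0 of 2 segments were called, beside 50 genes higher and 72 lower. DESeq2 called 0 of 2, beside 110 higher and 161 lower. Genes with any UMI gave 2 of 92, beside 503 higher and 719 lower of 15446. Leaving out 1 library gave 1 to 2 segments. Over all genes it gave 377 higher and 566 lower of 8785 without C, 286 and 394 of 8751 without T1, and 251 and 425 of 8663 without T3. Without C, Trbv2 was called too (log2 fold change -1.56, edgeR adjusted p = 0.0352), and Trbv12-2 turned to -0.25 (0.55 without T3). Over 10 alternatives the log2 fold change of the Trav16n row was 1.59 to 2.43 and its adjusted p (edgeR or DESeq2) 0.000323 to 0.142, with 8 calls. The value of 1.59 is that of the 3 Trav16 copies summed, not of Trav16n alone, and it is among the 8 calls. With 1 library left out, the lowest value of Trav16n was 1.67. Of all values of single segments under an alternative, those of Trav16n and of its summed copies included, 90 kept direction and side of the threshold. These 90 include the 14 differences with no minimum of UMIs, where this was fixed in advance. A further 24 values fell short of the threshold and 2 were reversed. The cause of these changes was not tested. Most segment records in a barcode rest on 1 UMI.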
